A study of Mus musculus with 15 samples.

Results

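The comparison set cells that carried a hairpin against Siva beside cells that carried an shLacZ hairpin. Its members were set by their hairpin labels, with earlier results of these data known, and are 12 of the 15 arrays of the series, 8 with shSiva and 4 with shLacZ. The cells were LSZ2 and LSZ4, 2 mouse lines of non-small cell lung cancer, and the study concerns the role of Siva, a target of p53, in such tumours. The shSiva arm held shSiva1 and shSiva2, both named in the titles with the vector pLKO TRC2.0, with 2 arrays for each line and hairpin. After infection these cells were kept in puromycin for 3 days. The shLacZ cells, named with the vector LL37, had 2 arrays in each line and were the only ones not selected with puromycin. All cells were infected with virus made in 293T cells, a human kidney line used for packaging, and were grown at subconfluent density in DMEM with serum. RNA was taken 2 days after plating, and 200 ng was amplified and labelled with Cy3 for Agilent 1-colour arrays. The 3 remaining arrays, shGFP in the vector pLKO.1 with puromycin, were left out of the comparison and are given beside it where they help to read a value.

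Values are log2 signals less the 75th percentile of their own array, so that 0 is the signal of a fairly bright probe and a difference of 1 is 2-fold. A change is the shSiva mean minus the shLacZ mean with the line held constant, with the standard error (SE) of the limma fit. The 75th percentile ran from 416.5 to 804.1 intensity units on the shSiva arrays, against 497.7 to 870.8 on the shLacZ arrays, and 0 spots were saturated. All shSiva arrays were on 1 slide and all shLacZ arrays on another. The slide, the vector and the puromycin selection therefore changed together with the hairpin, and their parts in any difference cannot be told apart. Nothing in the labels says whether the replicates were cultured separately, so the p-values cover the spread among these arrays alone, which may be technical. Keratins 8 and 18 (Krt8, Krt18) and E-cadherin (Cdh1), markers of epithelial cells, were well above background on 12 of 12 arrays. Among lung markers, Nkx2-1, Sftpc, Sftpa1 and Foxj1 were well above background on 0 of 12 arrays, Napsa on 1, Sftpb on 9 and Scgb1a1, a secretory protein of the airway, on 12, at levels of -5.62 to -4.25. Trp63, also among these lung and airway markers, was well above background on 12 of 12 arrays and brighter, at 2.03 to 2.74. Of 28 markers of blood, immune, endothelial and fibroblast cells, 14 could be tested and 0 were called. Their summed level was 24.6 to 41.7 times the 75th percentile on shSiva arrays, against 27.3 to 40.5 times on shLacZ arrays. Of markers picked for such cells, Cdh5, Pdgfrb, Dcn and Lum were well above background on 0 of 12 arrays, Pdgfra on 1 and Ptprc, which all leukocytes carry, on 7, at levels of -5.56 to -4.27 over the 12. Pecam1, an endothelial marker that could be tested, averaged -2.98 on shSiva and -2.34 on shLacZ arrays. The summed level over the 14 means that some members were brighter than the 75th percentile. The picked markers therefore do not stand for the whole list. In cultures measured in bulk, fewer cells of a kind and less RNA per cell cannot be told apart.

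Siva is a small zinc-binding protein that was first known as a partner of CD27, a receptor of lymphocytes, and is known as a transcriptional target of p53. The protein p53 is a transcription factor that cells activate under stress, and many of its targets halt the cell cycle or promote cell death. Short hairpin RNAs are processed by the cell into small interfering RNAs that direct the breakdown of a matching transcript. An effect that comes from loss of the target is usually sought in hairpins of different sequence, since each hairpin can also bind other transcripts.

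The check of the knockdown rests on the probe printed here, whose 60 bases lie within an interval of 852 bases on chromosome 12 of the mm9 build, from 113885242 to 113886093, and so join separate stretches of the Siva1 gene. The sequence is shown because it is the part of the transcript that the array read, in the letters of the scanner files. No letters are set in capitals.
Siva1 probe: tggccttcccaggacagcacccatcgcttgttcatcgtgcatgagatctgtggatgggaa

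Siva1 read 2.56 at the lowest, 3.55 at the median and 4.35 at the highest over the 8 shSiva arrays. The 4 shLacZ arrays read 5.52 and 5.83 in LSZ2 and 5.50 and 6.22 in LSZ4. No shSiva array reached the level of any shLacZ array. In the fit Siva1 fell by 2.28 (SE 0.29, adjusted p = 0.00163), which left 20.5% of the shLacZ level. With shSiva1 15.3% remained and with shSiva2 27.5%, and the hairpins differed by 0.84 (SE 0.24, adjusted p = 0.0232). The change was -2.21 in LSZ2 (SE 0.43, adjusted p = 0.0784) and -2.35 in LSZ4 (SE 0.43, adjusted p = 0.0259). The difference between the lines was -0.14 (SE 0.61, adjusted p = 1). A further Siva1 probe, at 113887275 to 113887334, changed by -2.12. The 3 shGFP arrays averaged 6.34, and shGFP minus shLacZ was 0.53 (SE 0.38, adjusted p = 0.444).

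**Figure D1:**
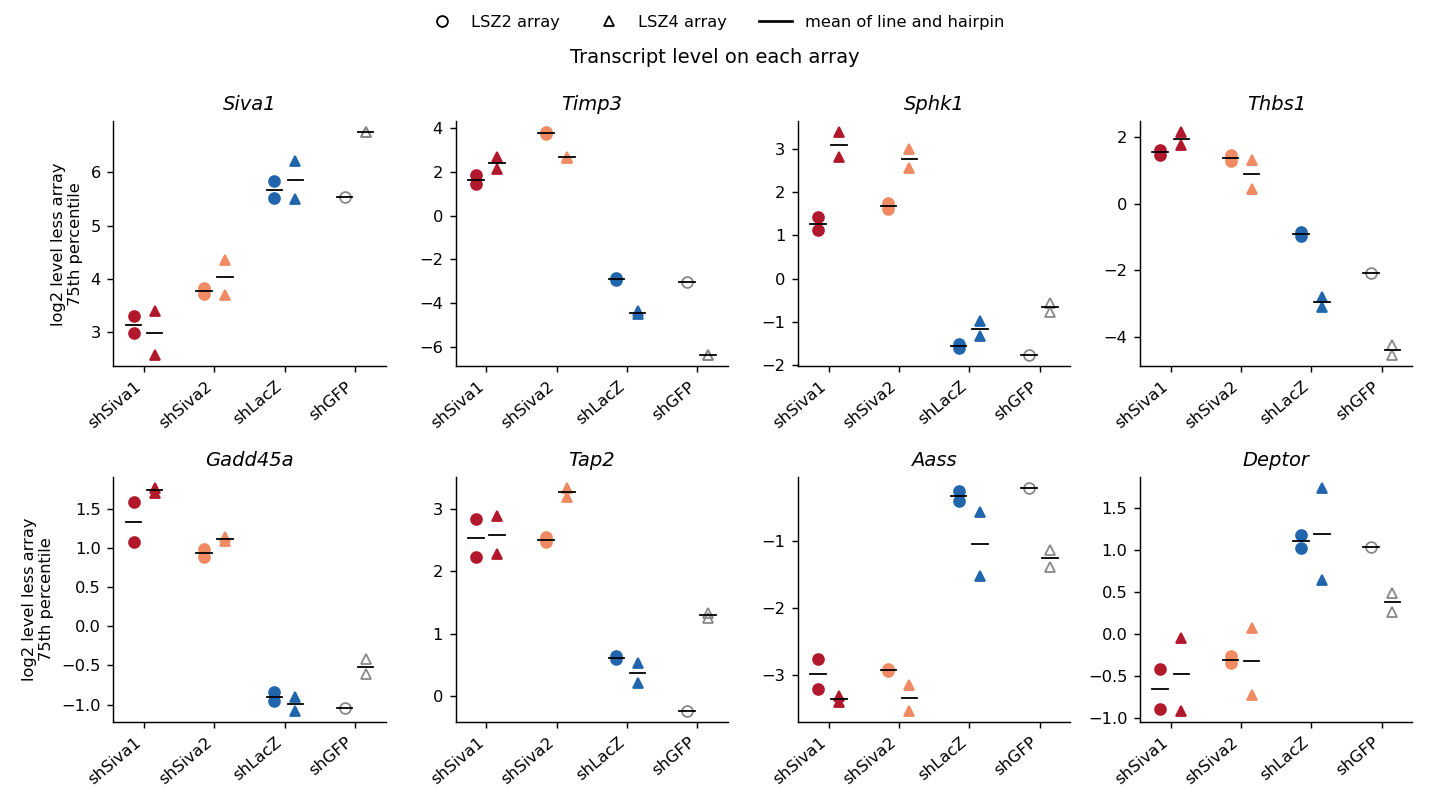
Level of 8 genes on each array, as log2 signal less the array's 75th percentile (y axis), by hairpin (x axis), with circles for LSZ2, triangles for LSZ4 and a black line at each mean; shGFP is open because it was not in the comparison. Siva1, Aass and Deptor are lower on every shSiva array than on the shLacZ arrays of the same line, and Timp3, Sphk1, Thbs1, Gadd45a and Tap2 are higher.

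Across the transcriptome, more genes were called higher than lower with the Siva hairpins. Of 22576 genes tested, 711 passed an adjusted p of 0.05, which is 3.15%. Of these, 499 were higher with shSiva (2.21% of the genes tested) and 212 lower (0.939%). At a change of at least 2-fold, 363 were higher and 95 lower. The median change of all genes was -0.03. On all 8 shSiva arrays 893 genes lay above every shLacZ array of their line (3.96% of genes tested), and 647 lay below (2.87%). The share of higher calls was 70.2%. It was 75.9% of 485 calls without the filter on dim probes, and 63.8% of 550 calls with every array well above background. It was 32.0% of 3892 calls with the brightness of the array as a covariate, which also moved the median of all genes to -0.10, and it was 59.7% of 1144 calls with the replicate number as a block. The count depended on single shLacZ arrays. It was 297 without LSZ2 replicate 1, 330 without LSZ2 replicate 2, 461 without LSZ4 replicate 1 and 423 without LSZ4 replicate 2. With 1 mean for each line and hairpin, limma called 0 genes, and 2283 had an unadjusted p under 0.05.

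The largest rise was that of Timp3 among genes with an ordinary symbol. Timp3, which encodes an inhibitor of matrix metalloproteinases (chromosome 10, 85811696 to 85811755), read 1.44, 2.65 and 3.80 at the lowest, the median and the highest of the shSiva arrays. It read -2.87, -2.97, -4.38 and -4.50 on the shLacZ arrays. The groups were far apart, and Timp3 rose by 6.30 (SE 0.44, adjusted p = 3.19e-05). Thbs1, which encodes the matrix glycoprotein thrombospondin, read 0.44, 1.46 and 2.14 on shSiva arrays, against -0.97 and -0.86 in LSZ2 and -2.82 and -3.11 in LSZ4 with shLacZ. The lowest shSiva array stood above the highest shLacZ array, and Thbs1 rose by 3.38 (SE 0.38, adjusted p = 0.000779). Tgfb2, a ligand of the TGF-beta receptors, read -2.73, -1.65 and -0.91, against -4.40, -4.53, -5.62 and -5.08. It rose by 3.12 (SE 0.42, adjusted p = 0.00201) without overlap of the groups. Vasn, which encodes a membrane protein that binds TGF-beta, read -2.42, -0.40 and 1.06, against -3.04, -3.41, -4.78 and -5.16. It rose by 3.57 (SE 0.67, adjusted p = 0.0136), a call that was lost without LSZ4 shLacZ replicate 2 (adjusted p = 0.0565). Fam20a, needed for enamel formation, read -1.61, -0.85 and 0.26, against -3.90, -4.10, -7.02 and -5.72, and rose by 4.47 (SE 0.54, adjusted p = 0.00112), with 2 of 4 shLacZ arrays well above background. Ecscr, a cell-surface protein known from endothelial cells, rose by 3.16 (SE 0.41, adjusted p = 0.00184). Among its shLacZ arrays, 1 of 4 stood well above background.

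Sphk1, Pla2g7 and Pitpnm3 also stood among the 12 largest rises. Sphk1 makes the signalling lipid sphingosine 1-phosphate, and its probe lies on chromosome 11 at 116397908 to 116397967. It read 1.12, 2.16 and 3.39 at the lowest, the median and the highest of the shSiva arrays, against -1.61, -1.53, -1.34 and -0.98 on the shLacZ arrays. Every array of both arms was well above background, the arms did not overlap, and Sphk1 rose by 3.57 (SE 0.23, adjusted p = 2.79e-05). A further Sphk1 probe changed by 3.71. Pla2g7, a phospholipase that degrades platelet-activating factor, read -4.0, -1.80 and -0.29 on shSiva arrays, against -5.03, -4.56, -7.06 and -6.68. It rose by 3.91 (SE 0.61, adjusted p = 0.00482). Pitpnm3, of the family of phosphatidylinositol transfer proteins, read -2.32, -1.32 and 0.50, against -5.91, -5.44, -7.06 and -6.67. It was well above background on 0 of 4 shLacZ arrays, so its rise is a bound of at least 26.4-fold (adjusted p = 0.00101). Such a bound takes as the shLacZ level of an array the lowest signal there that counts as well above background, or the gene's value if that is larger. Here and below, a bound holds only for the background subtraction of the main values. The adjusted p beside it tests the fitted change, not the bound.

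The other 3 of the 12 largest rises were likewise not measured above background with shLacZ. Like Pitpnm3, they entered the test through shSiva arrays alone. Skap1, an adaptor known from T cells, read -3.53, -2.92 and -2.28 on shSiva arrays, against -6.12, -7.19, -6.38 and -6.90. It rose at least 8.72-fold (adjusted p = 2.79e-05). Ascl3, a transcription factor of the achaete-scute family, rose at least 11.2-fold (adjusted p = 0.0203), and Stra6, which brings retinol into cells, rose at least 8.22-fold (adjusted p = 0.029). The shSiva arrays spread widely for both, from -3.88 to 0.35 for Ascl3 and from -6.41 to -1.27 for Stra6. Ascl3 did not pass without any 1 of the 4 shLacZ arrays (adjusted p from 0.0589 to 0.0736). Stra6 did not pass without any 1 of the 4 shLacZ arrays, without LSZ2 shSiva1 replicate 2 or without either LSZ2 shSiva2 array (adjusted p from 0.0509 to 0.11). Changes of dim genes were smaller after normexp background correction with an offset of 50, at 2.33 for Pitpnm3, 2.32 for Fam20a, 2.22 for Vasn, 1.93 for Ascl3, 1.89 for Pla2g7, 1.68 for Stra6, 1.64 for Tgfb2, 1.41 for Skap1 and 1.25 for Ecscr, and each of these still passed. For Pitpnm3, Ascl3, Stra6 and Skap1 these smaller changes lie below the bounds given above. On LSZ4 shSiva1 replicate 2 the 75th percentile was 492.1 before and 899.1 after normexp, the largest shift of any array. How far this array accounts for values after normexp correction, here and below, was not tested.

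Beside Siva1, the genes that fell most include Aass, Ffar4, Sgk2 and Cldn3. Aass, the first enzyme of lysine breakdown (chromosome 6, 23022668 to 23022727), read -3.54, -3.19 and -2.77 at the lowest, the median and the highest of the shSiva arrays. It read -0.26, -0.40, -0.57 and -1.53 on the shLacZ arrays, all above the highest shSiva array. Aass fell by 2.47 (SE 0.18, adjusted p = 3.26e-05), or by 1.59 after normexp correction (adjusted p = 0.00777). Ffar4, which senses long-chain fatty acids at the cell surface, read -3.83, -1.00 and 0.40 with shSiva, against 2.79 and 2.99 in LSZ2 and -0.64 and -0.47 in LSZ4 with shLacZ. The arms overlapped across lines but not within a line, and Ffar4 fell by 2.55 (SE 0.41, adjusted p = 0.006). Sgk2, a kinase, read -1.36, -0.24 and 0.54, against 1.18, 1.33, 1.57 and 2.12, and fell by 1.89 (SE 0.30, adjusted p = 0.00553). Cldn3, a tight junction protein, fell by 1.69 (SE 0.36, adjusted p = 0.0246), and it did not pass without either LSZ2 shLacZ array or without LSZ4 shLacZ replicate 2 (adjusted p from 0.075 to 0.101).

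Other falls rested on fewer arrays. Cyp2c66, a cytochrome P450, fell by 2.64 (SE 0.62, adjusted p = 0.0405), a call lost without any 1 of the 6 LSZ2 arrays, without either LSZ4 shLacZ array or without LSZ4 shSiva1 replicate 2 (adjusted p from 0.0547 to 0.128), without the filter on dim probes (adjusted p = 0.0687) and with each line and hairpin group fitted as a random block (adjusted p = 0.0524). Rnase4, a secreted ribonuclease, fell by 1.63 (SE 0.39, adjusted p = 0.0414) and was lost without any 1 of the 4 shLacZ or 4 shSiva1 arrays (adjusted p from 0.0543 to 0.135), and without the filter (adjusted p = 0.0725) and with the random block (adjusted p = 0.0563). Hr, a corepressor known from the hair follicle, fell by 1.73 (SE 0.36, adjusted p = 0.0222), but did not pass without either LSZ2 shLacZ array or without LSZ4 shLacZ replicate 2 (adjusted p from 0.0797 to 0.0845). Otop2, a proton channel, fell by 1.76 (SE 0.40, adjusted p = 0.0326) and was lost without any 1 of the 4 shLacZ arrays or either LSZ2 shSiva1 array (adjusted p from 0.0626 to 0.111). Fgf14, a regulator of sodium channels, fell by 1.60 (SE 0.37, adjusted p = 0.0349). It was lost without either LSZ2 shLacZ array, LSZ4 shLacZ replicate 2, either LSZ2 shSiva1 array, LSZ4 shSiva1 replicate 2 or LSZ4 shSiva2 replicate 1 (adjusted p from 0.0548 to 0.124). After normexp correction Otop2 read -0.93 and Fgf14 -0.48, neither of which passed (adjusted p = 0.148 and 0.713). Both were also lost without the filter (adjusted p = 0.0583 and 0.0613), and Fgf14 with the random block (adjusted p = 0.0623).

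The shGFP arrays, which share puromycin with the shSiva arrays and the slide with the shLacZ arrays, were read beside these genes. They are 1 LSZ2 array, with a 75th percentile of 755.2, and 2 LSZ4 arrays, the dimmest of the series, at 354.1 and 381. Between shGFP and shLacZ, limma called 0 of 22917 genes (0%), with 1524 at an unadjusted p under 0.05. The median of all genes was 0.25 for shGFP minus shLacZ and -0.21 for shSiva minus shGFP, so values against shGFP sit that far from 0. Without the LSZ2 shGFP array the median for shGFP minus shLacZ was 0.40. In that limma fit 7955 genes had an unadjusted p under 0.05 and 0 were called, so values against shGFP lean on this 1 array. Against shGFP 1874 genes were called with shSiva (8.18%), 647 of them higher (2.82%) and 1227 lower (5.35%). The fits against shLacZ and against shGFP share all 8 shSiva arrays. For Sphk1 the change was 3.57 against shLacZ and 3.44 against shGFP, and for Aass -2.47 and -2.35, with both genes well above background on every array. Skap1 was well above background on 0 of 4 shLacZ and 0 of 3 shGFP arrays. Timp3 rose by 6.30 against shLacZ and by 7.70 against shGFP, and Thbs1 by 3.38 and 4.90. For shGFP minus shLacZ, Timp3 changed by -1.40 and Thbs1 by -1.53 (adjusted p = 0.442 for each). Of the 3 shGFP arrays 1 measured each of these genes above background, so their values against shGFP depend on the background level.

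For Abca12 and Synpo2 most arrays of 2 arms were at background. Abca12, a lipid transporter known from the skin, read -6.68, -5.57 and -5.26 on shSiva arrays, against -3.38, -3.96, -3.59 and -4.73 on shLacZ arrays. It fell by 1.96 against shLacZ (SE 0.29, adjusted p = 0.00353), and changed by -0.64 against shGFP (adjusted p = 0.182). Synpo2, an actin-binding protein known from muscle, read -6.10, -5.47 and -4.80, against -5.08, -3.85, -2.94 and -2.37. It fell by 1.82 against shLacZ (SE 0.37, adjusted p = 0.0202), and changed by -0.12 against shGFP (adjusted p = 0.858). For each gene 1 of 8 shSiva arrays, 1 of 3 shGFP arrays and 3 of 4 shLacZ arrays were well above background, so the values against shGFP compare arrays mostly at background. After normexp correction Abca12 read -0.19 and Synpo2 -0.31, neither of which passed. Synpo2 was also lost without LSZ2 shLacZ replicate 2 or either LSZ4 shLacZ array (adjusted p from 0.0715 to 0.079).

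**Figure D2:**
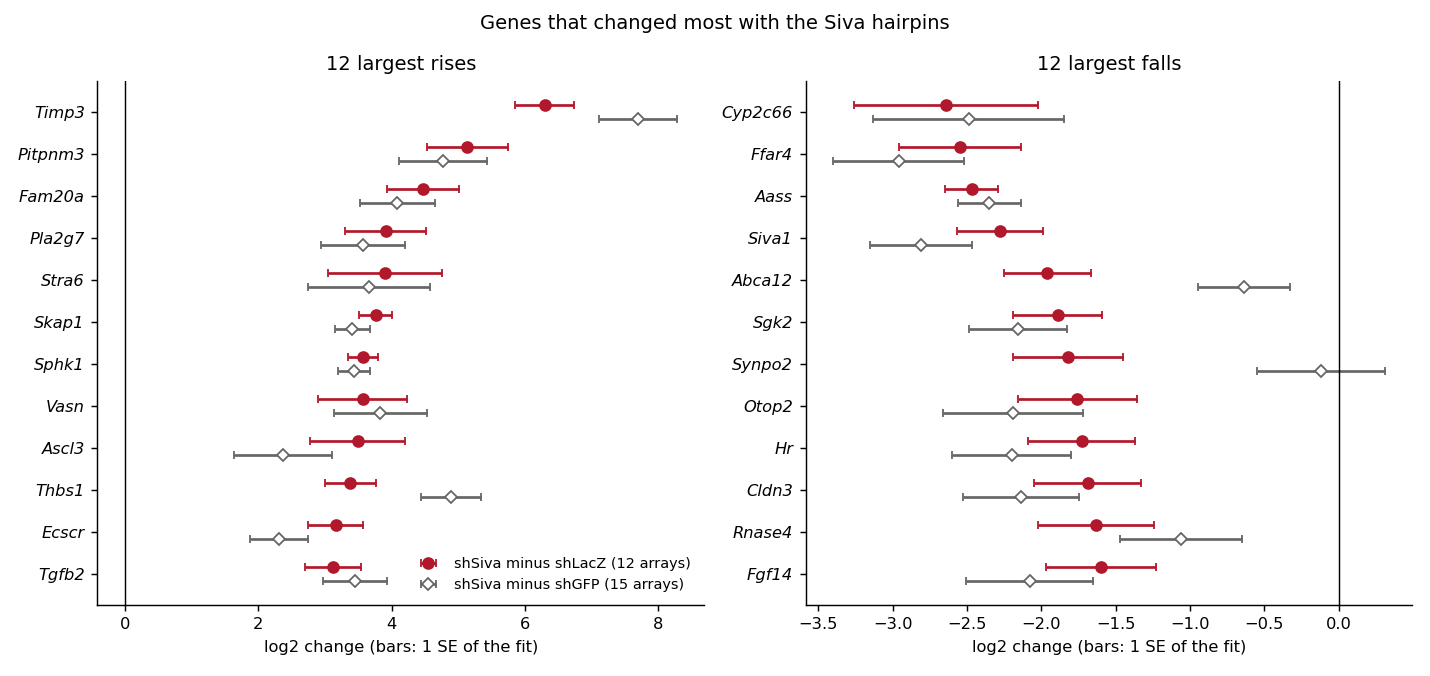
Log2 change (x axis, bars of 1 SE) of the 12 genes that rose most and the 12 that fell most (y axis), with filled circles for shSiva minus shLacZ and open diamonds for shSiva minus shGFP. Abca12 and Synpo2 lie at -1.96 and -1.82 against shLacZ and at -0.64 and -0.12 against shGFP, while Timp3 lies at 6.30 and 7.70. Of the 3 shGFP arrays 1 measured each of these 3 genes above background.

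Some of the genes that prepare peptides for MHC class I rose with the Siva hairpins. This pathway cuts proteins in the immunoproteasome, moves the peptides into the endoplasmic reticulum through the TAP transporter and presents them on class I molecules with beta-2 microglobulin, and interferons and NF-kB are known to raise its genes. Of 20 genes of this list, all measured, 5 were called higher (25.0%, against 2.21% of all genes tested) and 0 lower. The lists were chosen with earlier results of these data known. The shares given here and for the lists below are therefore descriptions and no independent test. The list's median change was 0.05, against -0.03 over all genes. Tap2, a subunit of the transporter, read 2.22, 2.69 and 3.33 on shSiva arrays, against 0.60, 0.64, 0.21 and 0.53 on shLacZ arrays. The arms did not overlap, and Tap2 rose by 2.22 (SE 0.22, adjusted p = 0.000276). Psmb9, a subunit of the immunoproteasome, read -2.08, -1.97 and -1.44, against -3.72, -3.89, -4.40 and -3.54, and rose by 2.05 (SE 0.20, adjusted p = 0.000273). Tap1, the other transporter subunit, read -3.40, -2.64 and -1.88, against -4.05, -3.90, -4.48 and -3.97. It rose by 1.45 (SE 0.26, adjusted p = 0.0109), and did not pass after normexp correction (0.88, adjusted p = 0.154). The other called members, B2m and Psmb8, were chosen after their values were seen. B2m, which encodes beta-2 microglobulin, rose by 0.55 (SE 0.12, adjusted p = 0.0322), and Psmb8, an immunoproteasome subunit that 0 of 4 shLacZ arrays measured, rose at least 5.99-fold (adjusted p = 0.0118). Psmb8 entered the test through shSiva arrays alone.

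The upstream sequences of 3 of these genes are printed because the genes sit close together or moved together here. They are the 250 bases before the start of each gene on its own strand, from RefSeq on GRCm38.p6. Capitals mark matches, on either strand, to the GAS element TTCNNNGAA in Psmb8 and to an interferon element and then an NF-kB site in B2m. The interferon element searched was GAAA, any 2 bases and GAAA, and the NF-kB site searched was the exact run capitalised there or its reverse complement.
Tap1 (chr17:34187306-34187555, plus strand): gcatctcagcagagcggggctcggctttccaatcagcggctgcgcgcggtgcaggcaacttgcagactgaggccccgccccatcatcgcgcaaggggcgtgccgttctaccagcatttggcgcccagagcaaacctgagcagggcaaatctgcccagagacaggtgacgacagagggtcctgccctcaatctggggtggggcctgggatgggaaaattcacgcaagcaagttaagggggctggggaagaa
Psmb8 (chr17:34197945-34198194, plus strand): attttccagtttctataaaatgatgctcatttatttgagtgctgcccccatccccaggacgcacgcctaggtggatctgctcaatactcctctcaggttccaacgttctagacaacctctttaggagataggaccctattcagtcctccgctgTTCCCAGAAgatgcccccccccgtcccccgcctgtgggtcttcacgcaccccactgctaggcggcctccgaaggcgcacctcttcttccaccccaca
B2m (chr2:122147437-122147686, plus strand): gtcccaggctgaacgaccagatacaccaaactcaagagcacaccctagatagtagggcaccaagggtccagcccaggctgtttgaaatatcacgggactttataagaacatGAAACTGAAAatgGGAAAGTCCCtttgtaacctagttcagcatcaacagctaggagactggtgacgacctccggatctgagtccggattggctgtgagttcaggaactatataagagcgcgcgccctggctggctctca

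Psmb9 runs the other way from Tap1, and 225 of the 250 bases printed for Tap1 are also upstream of Psmb9, whose start lies 226 bases away. In the Tap1 window none of the 3 motifs had a match. The Psmb8 window held 1 GAS element, which 7.02% of 32851 promoter windows of this length hold. The B2m window held 1 interferon element, found in 2.98% of windows, and 1 NF-kB site, found in 0.14%. Tap2 was not in the table used. These matches describe letters only.

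Interferon-stimulated genes and NF-kB targets gave further calls in the same direction. Of 38 listed interferon-stimulated genes 30 were measured. Of these, 4 were called higher (13.3%, against 2.21% of all genes tested) and 0 lower, and their median change was 0.52. Trim21, an antibody receptor of the cytosol, read -2.53, -1.75 and -1.33 on shSiva arrays, against -2.49, -2.54, -3.33 and -3.03 on shLacZ arrays, and rose by 1.0 (SE 0.17, adjusted p = 0.00715). Ifi27 read 4.28, 4.74 and 5.53, against 3.78, 3.94, 3.81 and 4.19, and rose by 0.95 (SE 0.18, adjusted p = 0.0131). Mx2, an antiviral GTPase, was measured on 5 of 8 shSiva arrays and 0 of 4 shLacZ arrays and rose at least 2.27-fold (adjusted p = 0.00825). Trim21 and Mx2 did not pass after normexp correction (adjusted p = 0.0926 and 0.594). The change of Mx2 was then 0.55, which lies below its bound. Xaf1, chosen after its values were seen, rose by 2.12 (SE 0.49, adjusted p = 0.0363).

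Of 30 listed NF-kB targets 24 were measured, with a median change of 0.31. Of these, 4 were called higher (16.7%, against 2.21% of all genes tested) and 0 lower. Tnfaip3, a feedback inhibitor of NF-kB, read 1.43, 2.27 and 2.69 with shSiva, against 1.43, 1.56, 0.32 and 0.31 with shLacZ. Each line's shSiva arrays lay above its shLacZ arrays, and Tnfaip3 rose by 1.28 (SE 0.15, adjusted p = 0.000779). Vcam1, an adhesion receptor for leukocytes, read 2.90, 3.12 and 4.53, against 1.36, 1.49, 1.73 and 1.37, and rose by 1.90 (SE 0.27, adjusted p = 0.00334). Csf1, a growth factor of macrophages, rose by 1.30 (SE 0.27, adjusted p = 0.0219). It was lost without either LSZ2 shLacZ array or LSZ4 shLacZ replicate 1 (adjusted p from 0.0722 to 0.0871) and with the mean of all its probes. Lif, a cytokine on both this list and that of MAPK output genes, rose by 0.97 (SE 0.21, adjusted p = 0.0276). It was lost without LSZ2 shLacZ replicate 1, either LSZ4 shLacZ array, LSZ2 shSiva1 replicate 2 or LSZ4 shSiva1 replicate 2 (adjusted p from 0.0528 to 0.0954), after normexp correction (0.62, adjusted p = 0.437) and without the filter on dim probes (adjusted p = 0.0549).

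Of 40 listed p53 targets 37 were measured and 3 were called higher, which is 8.11%, against 2.21% of all genes tested. None of the 37 was called lower with the hairpins pooled, and their median change was 0.32. With shSiva1 alone 8 were higher and 4 lower (32.4%, against 17.2% of all genes). With shSiva2 alone 8 were higher and 0 lower (21.6%, against 9.86%). Between the hairpins 9 were higher with shSiva2 and 2 lower (29.7%, against 22.4%). Gadd45a, which acts in growth arrest after DNA damage (chromosome 6, 66985376 to 66985435), read 0.89, 1.12 and 1.77 on shSiva arrays, against -0.96, -0.84, -1.08 and -0.90 on shLacZ arrays. It rose by 2.23 (SE 0.19, adjusted p = 0.000102) with a wide gap between the arms. Plk2, a kinase, read 0.20, 0.52 and 1.21, against -0.02, 0.11, -0.55 and -0.33, and rose by 0.77 (SE 0.15, adjusted p = 0.0173). It was lost without either LSZ2 shLacZ array or LSZ4 shLacZ replicate 1 (adjusted p from 0.0576 to 0.0781) and after normexp correction (0.65, adjusted p = 0.104). Tap1, given above, is the remaining called member. The cell cycle inhibitor Cdkn1a changed by 0.68 (adjusted p = 0.158) and the p53 ligase Mdm2 by 0.04 (adjusted p = 0.937), 2 members chosen as the best known of the list.

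Among genes of autophagy, in which vesicles carry cell contents to the lysosome, 5 of 38 measured were called higher and 0 lower. The share called higher was 13.2%, against 2.21% of all genes tested, and the median was 0.16. Wipi1, which acts at the forming autophagosome, read 1.27, 1.47 and 1.73 on shSiva arrays, against 0.55, 0.67, -0.15 and 0.38 on shLacZ arrays, and rose by 1.11 (SE 0.15, adjusted p = 0.00201) with no overlap. Map1lc3a, an LC3 protein of the autophagosome membrane, read -0.50, 0.28 and 0.87, against -1.12, -0.85, -1.28 and -0.57, and rose by 1.15 (SE 0.22, adjusted p = 0.0143). Gabarapl1, of the same protein family, read 5.89, 6.19 and 6.73, against 5.10, 5.28, 5.17 and 5.76, and rose by 0.92 (SE 0.18, adjusted p = 0.0148). Atg16l2 and the receptor Calcoco1, chosen after their values were seen, rose by 0.81 and 0.86. Map1lc3a was lost without LSZ2 shLacZ replicate 1 (adjusted p = 0.0543), and Gabarapl1 without that array or LSZ4 shLacZ replicate 1 (adjusted p = 0.0536 and 0.0667) or with normexp correction (0.77, adjusted p = 0.0757). Against shGFP, Map1lc3a changed by 0.83 (adjusted p = 0.0523) and Gabarapl1 by 0.61 (adjusted p = 0.103).

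Of 41 lysosomal genes measured, 4 were called higher (9.76%, against 2.21% of all genes tested) and 0 lower, with a median of 0.25. Galc, a galactosylceramidase, read -2.31, -1.81 and -0.82 with shSiva, against -3.56, -3.20, -2.32 and -2.47 with shLacZ. It rose by 1.16 (SE 0.20, adjusted p = 0.00939), but did not pass without LSZ2 shLacZ replicate 1 (adjusted p = 0.0503). Ctsh, a cathepsin, rose by 0.84 (SE 0.19, adjusted p = 0.0352), and was lost without any 1 of 8 arrays, namely LSZ2 shLacZ, shSiva1 and shSiva2 (both replicates of each), LSZ4 shLacZ replicate 1 and LSZ4 shSiva2 replicate 1 (adjusted p from 0.0549 to 0.141). It was also lost after normexp correction (0.73, adjusted p = 0.228), without the filter, with all 15 arrays and with the random block (Ctsh adjusted p from 0.062 to 0.0703). Gaa, chosen after its values were seen, rose by 0.86 (SE 0.21, adjusted p = 0.0466).

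In the mTOR list, whose kinase couples nutrients to growth and restrains autophagy, 3 of 38 measured members were called, 1 higher and 2 lower. Together that is 7.89%, against 3.15% of all genes tested, and the list's median was -0.03. Deptor, an inhibitor within the mTOR complexes, read -0.91, -0.37 and 0.08 on shSiva arrays, against 1.18, 1.03, 1.74 and 0.65 on shLacZ arrays, with no overlap. It fell by 1.58 (SE 0.24, adjusted p = 0.00475), or by 0.82 with the mean of its 2 probes, which did not pass. The other Deptor probe, which is dim, changed by -0.06. Ddit4l, a further inhibitor of mTOR signalling, read -0.88, 0.26 and 1.47, against -1.79, -1.74, -2.54 and -2.05, and rose by 2.31 (SE 0.49, adjusted p = 0.0256). It was lost without any 1 of the 4 shLacZ arrays or LSZ2 shSiva1 replicate 1 (adjusted p from 0.0501 to 0.0868). Rragb, a GTPase that recruits mTOR to the lysosome, fell by 1.01 (SE 0.23, adjusted p = 0.0325) and was lost under 12 of 25 alternatives, among them array median scaling, normexp correction, no filter, the random block and leaving out LSZ2 shLacZ replicate 1, either LSZ4 shLacZ array, either LSZ2 shSiva1 array, LSZ4 shSiva1 replicate 2 or LSZ4 shSiva2 replicate 1 (adjusted p from 0.0521 to 0.0981 for these arrays).

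**Figure D3:**
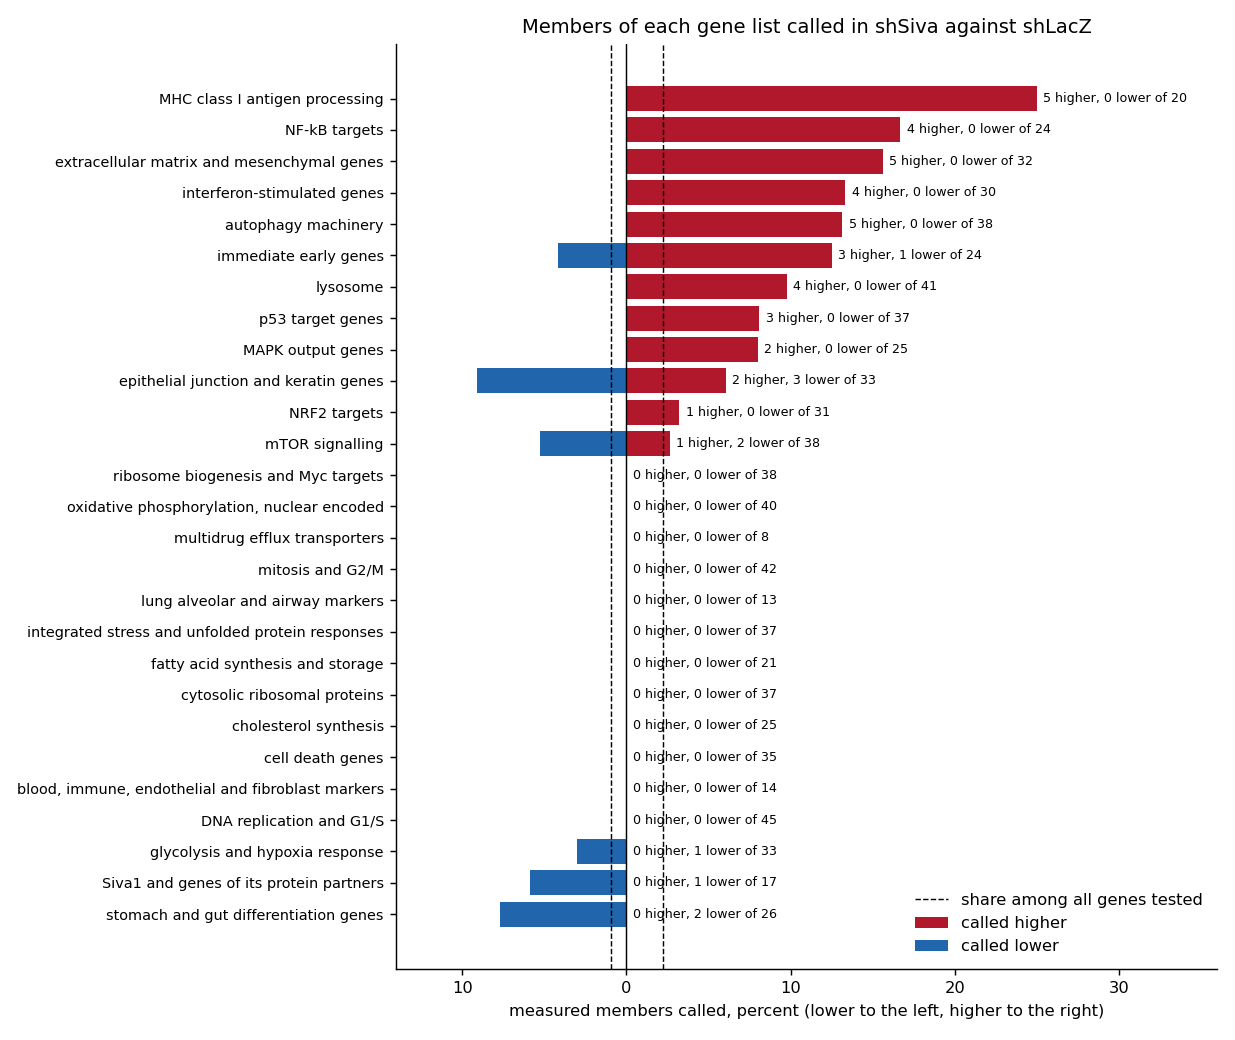
Share of the measured members of each gene list called at an adjusted p of 0.05 in shSiva against shLacZ, with members called higher to the right and lower to the left (x axis, percent) for each list (y axis); dashed lines mark the shares among all genes tested, 2.21% higher and 0.939% lower. The MHC class I list has the highest share, 5 of 20, and 12 lists have no called member.

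Matrix and mesenchymal genes were called higher in 5 of 32 measured (15.6%, against 2.21% of all genes tested) and lower in 0. Their median was 0.58. Timp3 and Thbs1 are given above. Ccn1, a matricellular protein that is also an immediate early gene, read 1.5, 2.16 and 2.67 on shSiva arrays, against 0.11, 0.22, 0.00 and 0.79 on shLacZ arrays. The arms did not overlap, and Ccn1 rose by 1.87 (SE 0.24, adjusted p = 0.00153). Fn1, which encodes fibronectin, and Cdh2, which encodes N-cadherin, were chosen after their values were seen and rose by 2.37 (SE 0.51, adjusted p = 0.0262) and 1.59 (SE 0.36, adjusted p = 0.0326). Of 24 immediate early genes, which respond fast to growth factors and stress, 3 were called higher and 1 lower. Together that is 16.7%, against 3.15% of all genes tested. Dusp1, a phosphatase of MAP kinases, read -0.60, 0.01 and 0.58 with shSiva, against -2.01, -2.16, -2.22 and -1.80 with shLacZ, and rose by 1.98 (SE 0.22, adjusted p = 0.000731). Jun, chosen after its values were seen, rose by 1.58 (SE 0.34, adjusted p = 0.025). Klf4, a transcription factor of epithelial differentiation, fell by 0.84 (SE 0.16, adjusted p = 0.0148), and was lost without either LSZ2 shLacZ array or LSZ4 shLacZ replicate 2 (adjusted p from 0.056 to 0.0723). Among 25 MAPK output genes, 2 were called higher (8%, against 2.21% of all genes tested). These were Lif and Spred3, an inhibitor of Ras signalling that 0 of 4 shLacZ arrays measured and that rose at least 2.88-fold (adjusted p = 0.00163). After normexp correction Spred3 changed by 0.61, which lies below that bound and did not pass (adjusted p = 0.496).

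Epithelial genes went both ways, with 2 of 33 measured called higher and 3 lower. Together that is 15.2%, against 3.15% of all genes tested. St14, a membrane serine protease, rose by 0.99 (SE 0.19, adjusted p = 0.0137), and Ehf, an epithelial ETS factor, by 1.05 (SE 0.23, adjusted p = 0.0319). St14 was lost without either LSZ2 shLacZ array (adjusted p = 0.0549 and 0.0723) and after normexp correction (0.90, adjusted p = 0.108). Ehf was lost without any 1 of the 6 LSZ2 arrays, LSZ4 shLacZ replicate 2 or LSZ4 shSiva2 replicate 1 (adjusted p from 0.0517 to 0.123). It was also lost after normexp correction (0.88, adjusted p = 0.0779), without the filter on dim probes (adjusted p = 0.0605) and with the random block (adjusted p = 0.0528). Cldn3 is given above, and Krt20, a keratin of gut epithelium, and Grhl2, a regulator of epithelial junctions, both chosen after their values were seen, fell by 1.13 and 0.97 (adjusted p = 0.0459 and 0.0404). Of 26 stomach and gut genes 2 were called lower (7.69%, against 0.939% of all genes tested) and 0 higher. Cyp2c66, given above, is 1 of these 2. Egln3, an oxygen sensor, was the only 1 of 33 glycolysis and hypoxia genes called (3.03%, against 3.15% of all genes tested). Egln3 fell by 1.11 (SE 0.23, adjusted p = 0.0212), but was lost without either LSZ2 shLacZ array or LSZ4 shLacZ replicate 2 (adjusted p from 0.056 to 0.0958). Of 31 NRF2 targets 1 was called (3.23%, against 3.15% of all genes tested). This was Gstm2, a glutathione transferase, which read 3.33, 4.17 and 5.04, against 1.20, 1.36, 1.99 and 2.53, and rose by 2.37 (SE 0.17, adjusted p = 3.19e-05).

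No member was called by limma in 12 lists. Among 42 mitosis and G2/M genes the median was -0.39, against -0.03 over all genes, and 2 of 42 had a change above 0. Ccnb1, the cyclin that drives entry into mitosis, read 4.08, 4.36 and 4.76 on shSiva arrays, against 4.90, 4.87, 5.44 and 4.96 on shLacZ arrays. Its arms did not overlap, and its change of -0.63 (SE 0.19) did not pass (adjusted p = 0.0943). Ccna2 changed by -0.59 (adjusted p = 0.111) and Aurka by -0.60 (adjusted p = 0.179). For shGFP minus shLacZ the mitosis median was -0.16, against 0.25 over all genes. The median was -0.17 over 45 genes of DNA replication, -0.22 over 38 genes of ribosome biogenesis, 0.08 over 37 ribosomal proteins and 0.01 over 40 genes of oxidative phosphorylation. It was 0.04 over 35 cell death genes, -0.07 over 37 genes of the integrated stress and unfolded protein responses, -0.14 over 25 cholesterol genes and -0.09 over 21 fatty acid genes. It was 0.03 over 8 efflux transporters, -0.16 over 13 lung markers and 0.06 over the 14 markers of other cell types. Of the 17 measured genes of Siva1 and its protein partners, Siva1 alone was called, with a median of 0.04.

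**Figure D4:**
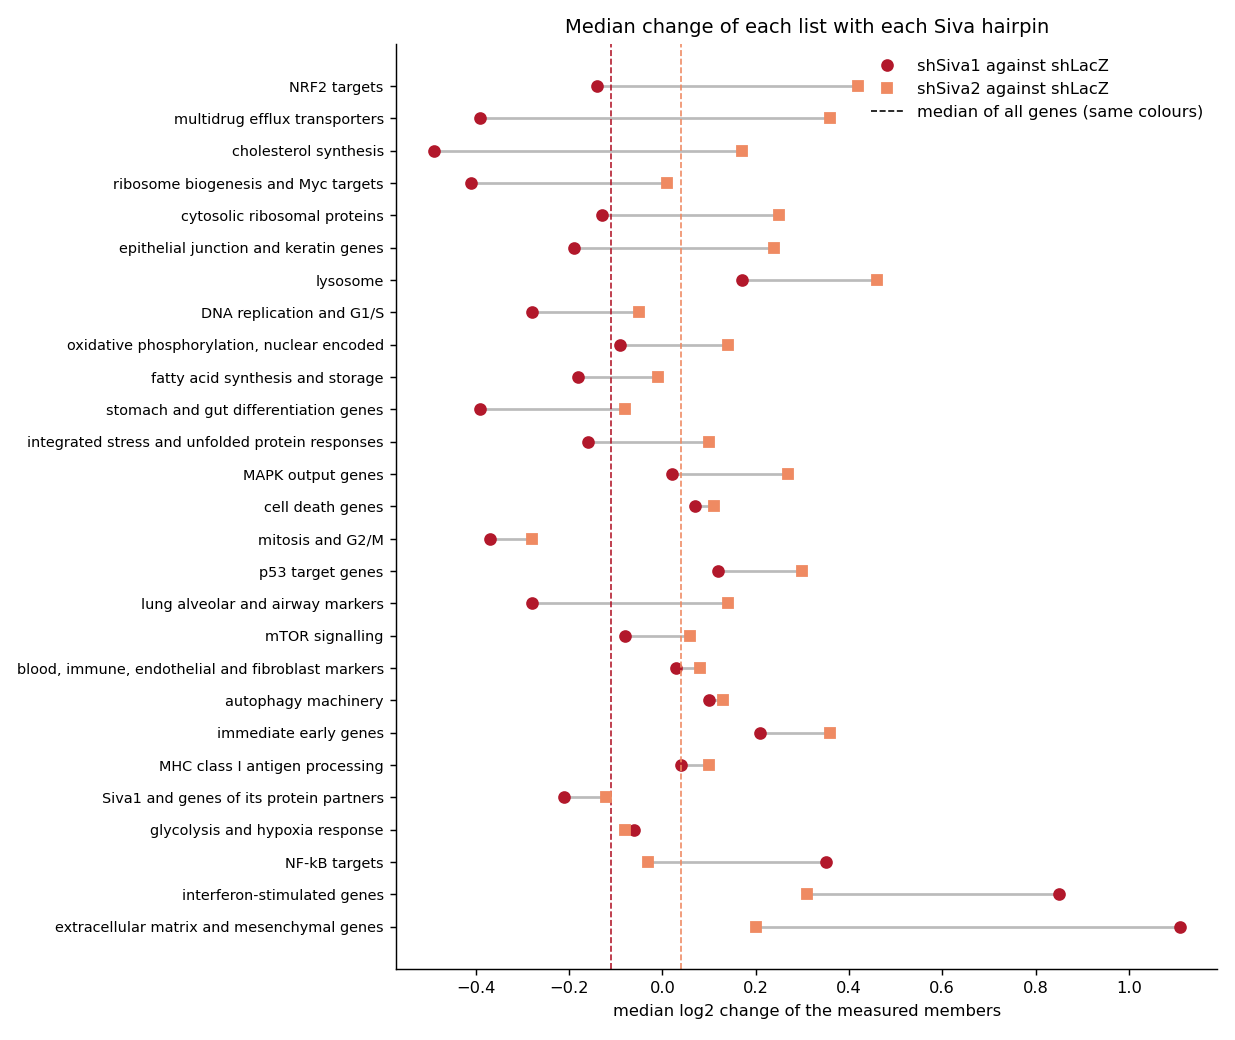
Median log2 change of the measured members of each list (y axis) with shSiva1 (circles) and with shSiva2 (squares) against the same shLacZ arrays (x axis), with dashed lines at the medians of all genes, -0.11 for shSiva1 and 0.04 for shSiva2. Lists are ordered by the median difference between the hairpins, with NRF2 targets at the top and matrix genes at the bottom.

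The Siva hairpins differed from each other in many genes. Against the same 4 shLacZ arrays, shSiva1 called 3873 genes (17.2%), 2162 higher (9.58%) and 1711 lower (7.58%). With shSiva2 2225 were called (9.86%), 1273 higher (5.64%) and 952 lower (4.22%). Between shSiva2 and shSiva1, 5057 genes differed (22.4%), 2687 higher with shSiva2 and 2370 lower. Of the 711 genes called with both hairpins pooled, 171 differed between the hairpins, which is 24.1%. With array brightness as a covariate 36.5% of calls were higher for shSiva1, against 55.8% without it, and 38.2% for shSiva2, against 57.2%. The shSiva1 share was also 47.6% with every array above background, 47.2% with a replicate block and 46.3% without LSZ4 shLacZ replicate 1. With quantile normalization and brightness it was 47.2%, and under the rest 54.9% to 64.6%. For shSiva2 it was 49.6% without LSZ4 shLacZ replicate 1, 47.3% with quantile normalization and brightness, and 54.9% to 62.4% under the rest. In the slide layout shSiva1 arrays were in row 1 and shSiva2 and shLacZ arrays in row 2, so row and hairpin cannot be told apart. Of the 12 largest rises 7 differed between hairpins, and of the 12 largest falls 8. Of the shLacZ level of Rnase4, 19.7% remained with shSiva1 and 52.8% with shSiva2. For Sphk1 the change was 3.55 with shSiva1 and 3.60 with shSiva2 (adjusted p of the difference 0.918), for Aass -2.49 and -2.45 (0.907), and for Fam20a 4.57 and 4.37 (0.856). For Vasn it was 4.81 with shSiva1 and 2.33 with shSiva2 (0.000195), and for Pla2g7 5.04 and 2.77 (7.04e-05).

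Of all genes 11.9% were higher with shSiva2 than with shSiva1 and 10.5% lower. Of 32 matrix genes 5 were higher and 15 lower, and of 31 NRF2 targets 15 were higher and 0 lower. Gsta3, a glutathione transferase, changed by -0.30 with shSiva1 and 5.58 with shSiva2, a difference with an adjusted p of 2.4e-06, and was well above background on 6 of 8 shSiva arrays. Of 30 interferon-stimulated genes 4 were higher with shSiva2 and 12 lower. Gsta3 was not called in the pooled comparison (limma, adjusted p = 0.422), nor were the genes named next, which also had the largest differences between the hairpins. Aqp1, a water channel that every array measured, changed by 2.85 with shSiva1 and -3.85 with shSiva2 (adjusted p of the difference 3.1e-06). Degs2, a sphingolipid enzyme, changed by -4.56 and 1.14 (1.35e-05), and Depp1 by -1.80 and 3.51 (5.78e-05), each well above background on 7 of 8 shSiva arrays and 4 of 4 shLacZ arrays. Sdc3, a syndecan, was measured on 4 of 8 shSiva and 2 of 4 shLacZ arrays, and Chrna1, a subunit of the muscle acetylcholine receptor, on 6 of 8 and 2 of 4. Krt17, a keratin of basal cells, read -7.0, -7.13, -6.73 and -5.76 with shSiva2, against -1.57, -0.96, 0.56 and 1.02 with shSiva1. It was well above background on 4 of 8 shSiva arrays and 0 of 4 shLacZ arrays, so no exact change is given. The MHC class I list gave 5 called higher (25.0%) and 0 lower of 20 with each hairpin, against 9.58% of all genes higher with shSiva1 and 5.64% with shSiva2. It differed between hairpins in 3 of 20 members, against 22.4% of all genes.

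Within the lines fewer genes passed. In LSZ2 69 genes were called (0.306%), 55 higher (0.244%) and 14 lower (0.062%). Without LSZ2 shLacZ replicate 1 there were 4 higher and 7 lower, and without LSZ2 shLacZ replicate 2 there were 4 higher and 5 lower. In LSZ4 277 genes were called (1.23%), 241 higher (1.07%) and 36 lower (0.159%). The test of the difference between the lines called 0 genes in limma (0%), with 381 at an unadjusted p under 0.05, so a difference in response between the lines was not shown. Timp3 changed by 5.63 in LSZ2 and 6.97 in LSZ4, a difference of 1.35 (SE 0.83, adjusted p = 1). With array brightness as a covariate the share of higher calls was 38.5% in LSZ2, against 79.7% without it, and 37.9% in LSZ4, against 87.0%. Without the filter on dim probes it was 66.7% in LSZ2 and 76.7% in LSZ4. The count in LSZ2 fell to between 9 and 31 when any 1 of its 6 arrays was left out. The count in LSZ4 was 84 without LSZ4 shLacZ replicate 1, 157 without LSZ4 shLacZ replicate 2, 169 without either LSZ2 shLacZ array, 182 without LSZ2 shSiva1 replicate 1, 183 without LSZ4 shSiva1 replicate 2 and 177 without LSZ2 shSiva2 replicate 1. The median absolute difference between replicates was 0.635 for LSZ4 shLacZ and 0.211 for LSZ2 shLacZ, against 0.101 to 0.529 for the shSiva groups.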

How the data were processed

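The 15 arrays were Agilent 1-colour scans, and the intensity values (gProcessedSignal) were background-subtracted in Feature Extraction 10.7.3.1 by the authors, per the file headers, with probes placed on mm9. The authors' deposited table of log2 values matched the scanner values after centring of each probe (r = 1 on every array, median difference at most 0.003) and served as an alternative. Here each array's log2 intensity was set against its 75th percentile. Probes well above background on at least 4 of the 12 arrays, with at most 3 values missing, were kept (31582 of 55681), and each gene was represented by its probe of highest mean, giving 22576 genes. A gene seen in 1 arm alone could pass on 4 of the 8 shSiva arrays but needed all 4 shLacZ arrays. Pitpnm3, Skap1, Ascl3, Stra6, Psmb8, Mx2, Spred3 and Krt17 entered through shSiva arrays alone. Their p-values, and their part in the shares of called list members, carry this limit. Symbols were updated through RefSeq for 26582 probes and kept for 29099. Files give no read depth, and the number of arrays limits the precision.

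Differences were fitted in limma 3.58.1 (R 4.3.3) with the line as covariate, and p-values were adjusted by Benjamini-Hochberg over all genes tested, with calls at 0.05. The hairpins were fitted as separate arms, the lines with an interaction, and shGFP in a fit of all 15 arrays. On simulated data with 22576 genes, the pooled comparison recovered 4 of 67 genes changed by 0.5, 48 of 67 changed by 1 and 63 of 66 changed by 2 (log2), with 5 false calls. The simulation used independent noise and the same effect for both Siva hairpins. In the data 22.4% of genes differed between the hairpins, so these figures do not give the recovery or false calls of this comparison.

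The members and the 27 gene lists were chosen with earlier results of these data known. Genes named in the text are Siva1, the 12 largest called rises and the 12 largest called falls with an ordinary symbol and the same side of shLacZ in all 4 line and hairpin groups, from every list the 3 members of lowest p, and the 4 largest called in each direction of the contrasts between lines, between Siva hairpins and between shGFP and shLacZ. Others are said to be chosen after their values were seen. Alternatives were other scalings, normexp background correction, the filter, the probe rule, a replicate block, array brightness, a random block for line and hairpin, all 15 arrays, and leaving out each array. A few genes that this rule names are not reported here.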

Additional observations from a re-analysis of the deposited data

How the results depend on the processing

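Over 131 results for named genes and the 27 list medians, with 3248 values under the alternatives, 2934 counted as unchanged. A further 190 lost a call, 104 gained one, 20 moved and 0 reversed. A gene counted as unchanged if it kept its side of the threshold. A list median, which has no threshold, counted as unchanged if it shifted by less than its spread between replicates, and otherwise as moved. Siva1 changed by -2.53 to -2.13 over all alternatives and by -2.41 to -2.13 with 1 array left out. With 1 mean for each line and hairpin it was -2.28 (adjusted p = 0.272), and the pooled comparison called 0 genes. Genes chosen after their values were seen were not run through the alternatives. The slide could not be fitted as a block, since each slide held 1 arm, and 17 of the 54 called named genes did not pass after normexp correction.

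Deviations of same-numbered arrays correlated at 0.28 to 0.74 between 5 of the 6 groups, and at -0.23 to -0.06 between LSZ2 shSiva2 and the others. The labels do not say that a number marks a shared culture or day, so pairing is not established for all groups, and the block is given here as an alternative. With a replicate block the pooled count was 1144 in place of 711, shSiva1 had 6063 in place of 3873, shSiva2 3847 in place of 2225, and shSiva2 minus shSiva1 7586 in place of 5057. Quantile normalization gave 1173 pooled, 119 in LSZ2 and 3451 for shSiva2. After normexp correction the counts were 256 pooled, 13 in LSZ2, 56 in LSZ4, 2217 for shSiva1, 846 for shSiva2 and 3285 between hairpins. Normexp moved the 75th percentile of LSZ4 shSiva1 replicate 2 from 492.1 to 899.1, more than that of any other array. The part of this array in the lower counts was not tested. The random block gave 466 pooled, at an estimated correlation of 0.15.

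With brightness as a covariate the counts were 3892 pooled, 683 in LSZ2, 1907 in LSZ4, 10697 for shSiva1, 6792 for shSiva2, 9537 between hairpins and 1 for shGFP minus shLacZ. Quantile normalization with brightness, chosen after seeing the data, gave 3663 (45.2% higher), 788, 1685, 10497, 7178, 9966 and 2 in that order. Requiring every array above background left 33 genes in LSZ2 and 169 in LSZ4. The difference between lines called 1 gene with median scaling, 2 without the filter and 1 with all 15 arrays.

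With 1 array left out, counts ran from 297 to 746 pooled, 9 to 72 in LSZ2, 84 to 278 in LSZ4 and 0 to 8 for the line difference (8 without LSZ4 shLacZ replicate 1, 2 without LSZ4 shLacZ replicate 2 and 1 without LSZ2 shLacZ replicate 1). They ran from 2846 to 4248 for shSiva1, 1514 to 2544 for shSiva2, 3805 to 5648 between hairpins and 0 to 1 for shGFP minus shLacZ (1 without LSZ2 shLacZ replicate 2). List medians also moved with 1 array left out. They ran from 0.08 to 0.21 for autophagy, 0.20 to 0.39 for NF-kB targets and 0.42 to 0.60 for interferon-stimulated genes. For DNA replication they ran from -0.24 to -0.07, for ribosome biogenesis from -0.29 to -0.10 and for mitosis from -0.42 to -0.27. The cause of these shifts was not tested. Genes dim with shLacZ have changes that depend on the background correction.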
